A study of Mus musculus with 4 samples.

Results

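Basal-keratin spots of unwounded mouse oral mucosa were compared with those of unwounded facial skin, over all genes, in 2 tissue sections profiled with 10x Visium. In this assay tissue is laid on a slide printed with barcoded spots, each of which covers several cells or parts of them, and each captured transcript is counted by its unique molecular identifier (UMI). Members were chosen by their own readout: among spots with at least 1000 UMIs, the 60 with the largest share of UMIs in Krt5, Krt14 and Krt15 were taken from each section, with ties broken by barcode order. This gave 120 of the 1959 spots of the unwounded sections, of which 1176 had at least 1000 UMIs, and of 3530 spots in all. The series holds 4 such sections from wildtype mice, of flash-frozen facial skin and oral mucosa, each unwounded or at postoperative day 4, with 1 section per group. The groups compared are therefore wildtype unwounded oral mucosa and wildtype unwounded facial skin, and the same choice of 60 spots in each day 4 section of wildtype mice serves as a further pair. The age of the mice, the site within the mouth and the number of animals per section are not stated in the labels.

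Stratified epithelium is renewed by a basal layer that sits on the basement membrane and is marked by the keratin pair Krt5 and Krt14. Krt15 is added in basal cells of low turnover and in the hair follicle bulge. Cells that leave the basal layer exchange this pair for others: Krt1 and Krt10 in epidermis, where a granular layer then makes filaggrin and a cornified envelope, and Krt4 with Krt13 in the lining mucosa of the mouth. Krt6, Krt16 and Krt17 are the keratins of hair follicles, of injured epidermis and of some oral epithelia.

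**Figure D1:**
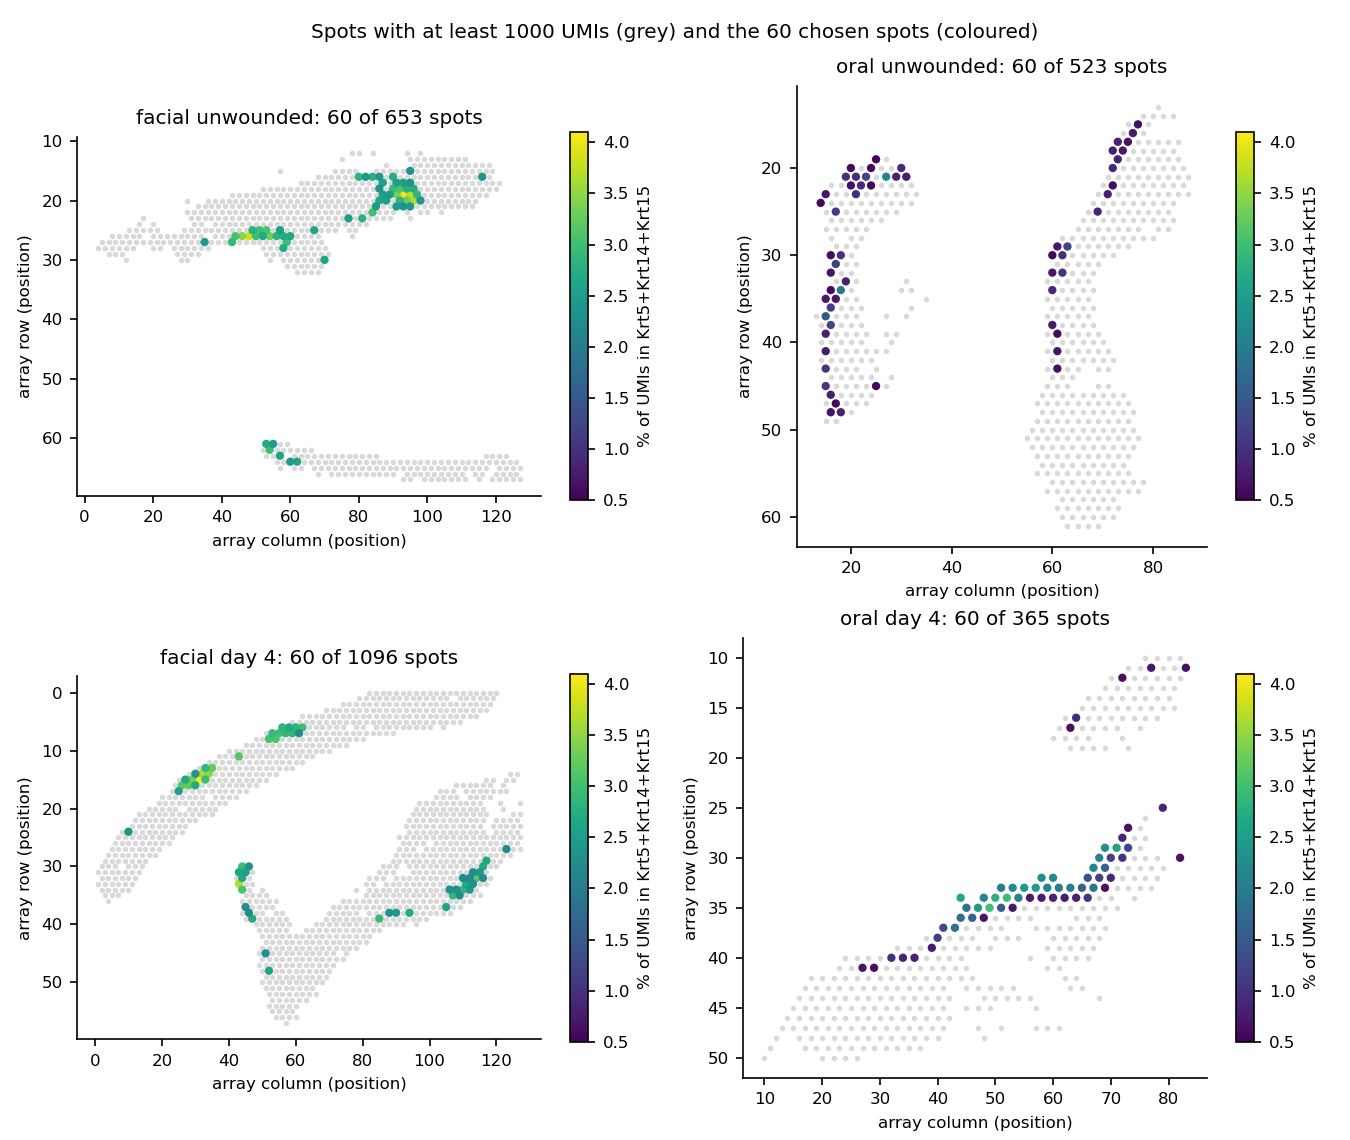
Positions on the array of spots with at least 1000 UMIs in each of the 4 sections, with array column on the horizontal and array row on the vertical axis. The 60 members of each section are coloured by their share of UMIs in Krt5, Krt14 and Krt15 in percent, and grey marks the other spots. In both unwounded sections 52 of 60 members have another member as a direct neighbour.

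The members took 11.6% of the facial and 12.4% of the oral section's UMIs. They held 1386603 UMIs in facial skin, with 3253 to 95435 per spot, and 905571 in oral mucosa, with 1081 to 46421. Facial members fell into 12 connected patches, the largest of 31 spots, and oral members into 19, the largest of 10. With 1 section per group there is no test, and spots are not replicates. A level is given as CPM, the count of a gene scaled to a common total of the UMIs summed over the 60 spots, a ratio with its exact 95% interval for Poisson counts, and these intervals cover counting error only, not variation between animals. Calls of higher or lower needed 20 UMIs over both sides, a 2-fold difference in CPM and Poisson intervals that did not overlap. In spots, fewer cells of a type and less RNA per cell cannot be told apart.

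The following features of these sections stand beside every result. The facial section labelled unwounded carried S100a8 and S100a9, transcripts of neutrophils and of stressed keratinocytes, in all 60 members: together they took 0.148% to 5.85% of a spot's UMIs with a median of 0.389%, against 0% to 0.0754% in oral members. In 41 of the 60 facial members the share was under 0.5%. Values from the 60 highest-scoring spots under that limit are given where a result rests on it. The score itself differed, with a median of 2.68% in facial and 0.805% in oral members. The lowest member and the next spot outside stood at 2.34% and 2.34% in facial skin and at 0.555% and 0.547% in oral mucosa. A setting called matched on score took, for each oral member, the facial spot nearest in score. The highest oral score was 2.17%, so these facial spots came mainly from outside the facial members. Against them 12 of 12 macrophage and monocyte genes and 14 of 15 sebaceous gland genes were lower in oral members. That setting is therefore not one of basal-keratin spots alone. The 14 skeletal muscle markers took 1.03% of UMIs in oral members (0.265% to 5.38% per spot) and 0.0167% in facial members, in which 1 of the 14 was at 0.

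The score genes are a description, since they chose the spots. Krt14, the type I basal keratin, ran from 925 to 14348 CPM with a median of 4173 in oral spots and from 13906 to 30874 CPM with a median of 18253 in facial spots. Krt5, its type II partner, ran from 526 to 8388 CPM with a median of 3529 in oral spots and from 2453 to 12783 CPM with a median of 8485 in facial spots. Facial spots were the richer in both, with ranges that meet at their edges for Krt14 and overlap widely for Krt5. Summed over spots, Krt14 stood at 4567 CPM in oral and 18863 in facial members, and Krt5 at 4110.1 and 8168. Of the UMIs of the score, Krt14 made up 68.6%, Krt5 29.7% and Krt15 1.73% in facial members, against 50.9%, 45.8% and 3.36% in oral members.

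Krt15, the least abundant score gene, had a UMI in 34 of 60 oral spots (from 0 to 1711 CPM with a median of 66) and in 58 of 60 facial spots (from 0 to 1696 CPM with a median of 448). Across the 60 spots of a section, the Spearman correlation of Krt15 with Krt5 was 0.46 in both sections and that with Krt14 was -0.33 in facial and -0.30 in oral mucosa. That of Krt5 with Krt14 was -0.15 in facial and 0.11 in oral mucosa. These are descriptions over spots that share a section and were chosen on the sum of the 3 genes, a choice that itself bears on such correlations. Krt15 stood at 6.46 times the level of the other oral spots in oral members and at 0.725 times that of the other facial spots in facial members. These ratios too are a description, since Krt15 is part of the score. At day 4 it stood at 23.4 CPM in oral and 1201 CPM in facial members.

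**Figure D2:**
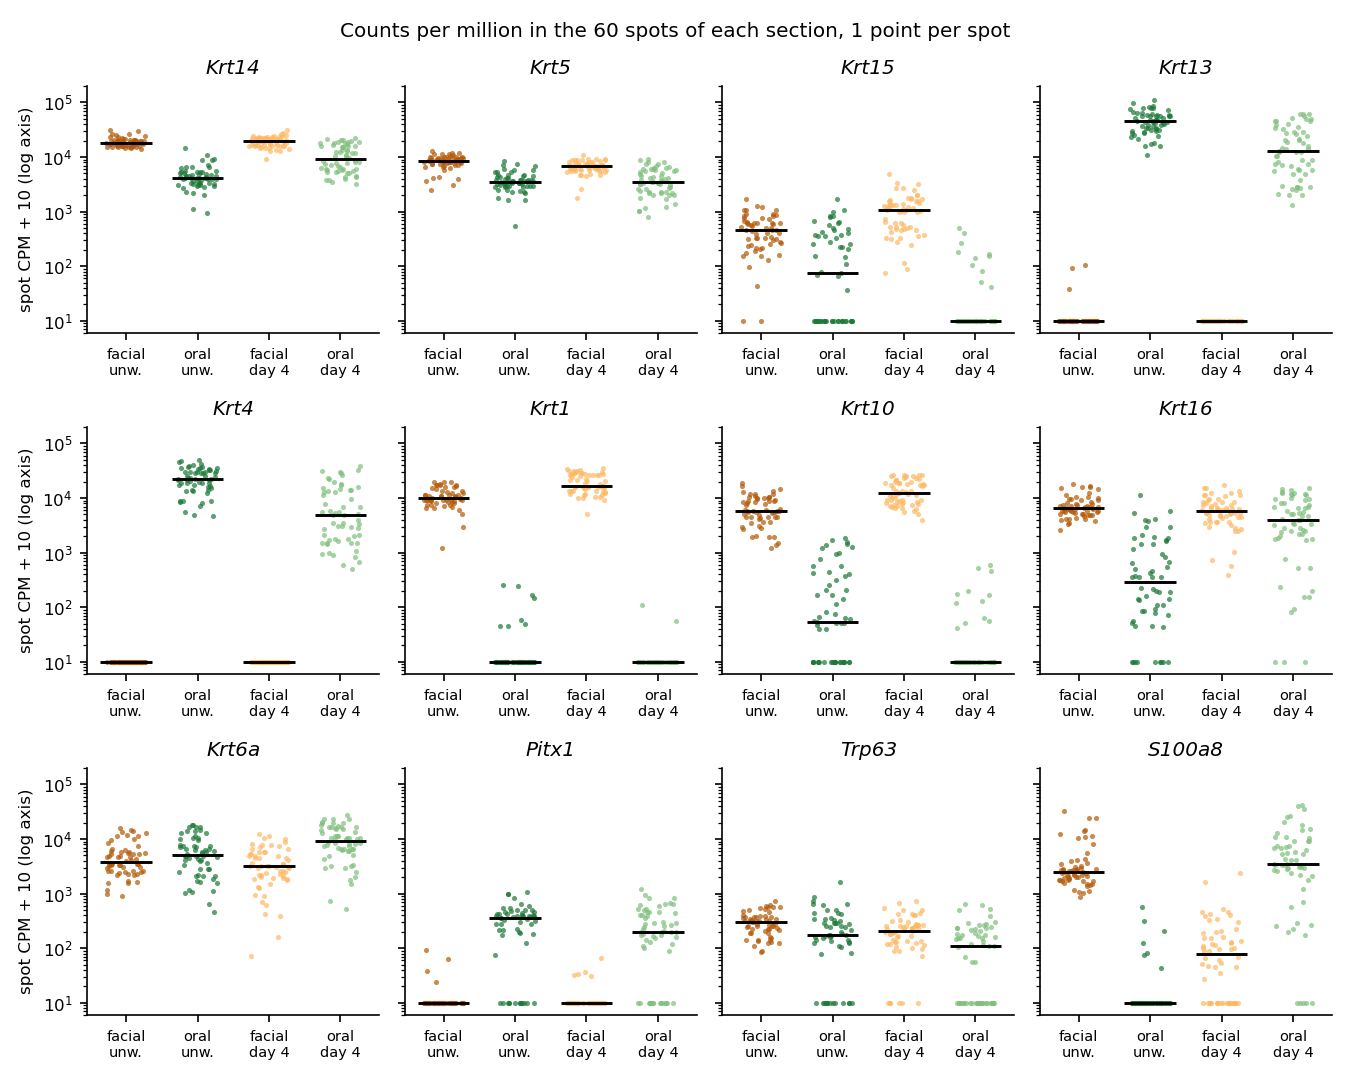
Spot CPM plus 10 on a log axis for 12 genes, with 1 point per member spot, 60 spots in each of the 4 sections and a line at the median. Krt13 and Krt4 separate every oral from every facial spot, Krt1 lies near 0 in most unwounded oral spots, and S100a8 is present in every unwounded facial spot.

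The label was checked against other basal genes. Trp63, the transcription factor that maintains stratified epithelial progenitors, had a UMI in 46 of 60 oral and 60 of 60 facial members, at 213 and 289 CPM (log2 ratio of oral to facial -0.44, 95% interval -0.70 to -0.19). Its level was 5.32 times that of the other spots in oral members and 1.24 times in facial members. Of 9443 measured genes, 5609 stood at 1.5 times or more the other spots in oral members and 400 in facial members. A higher level than in the other oral spots is therefore not particular to basal genes. The hemidesmosome and basement membrane genes summed to 0.197% of UMIs in oral members and 0.121% in the other oral spots, but to 0.232% in facial members and 0.234% in the other facial spots. By this sum facial members were not richer in attachment genes than the rest of their section. The spots were not purely basal. Krt13 with Krt4 took 1.55% to 15.9% of UMIs in oral members with a median of 6.71%, and Krt1 with Krt10 took 0.245% to 3.84% in facial members with a median of 1.56%. The members are therefore stretches of epithelium that hold the basal layer together with suprabasal layers, and every value below is of that mixture.

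Across 9443 genes with at least 20 UMIs, 666 were higher in oral members (7.05%) and 833 were lower (8.82%), with a median log2 ratio of -0.12 after adding 10 CPM to both sides. With TMM scaling 727 were higher (7.7%) and 717 lower (7.59%). Of 5609 genes at 1.5 times or more the level of the other oral spots, 343 were higher in oral members (6.12%). Of 400 such genes on the facial side 119 were lower (29.8%). Each filter used the member values that then entered the ratio, so these shares are in part a description of that choice. The filters also passed very unlike numbers of genes, so the shares cannot be set against each other or against those over all genes. Taking Krt5 and Krt14 UMIs as the reference in place of the total raised all unwounded log2 ratios by 1.64, so that every gene below 0 by less than that turns to higher in oral members on that scale, and 97.7% rather than 44.4% of the calls were higher. On that scale 15 of 26 epidermal spinous and granular genes were higher and 9 lower, 15 of 21 hemidesmosome genes higher and 0 lower, 8 of 15 basal keratinocyte genes higher and 0 lower, and 8 of 14 junction genes of the tight and gap type higher and 2 lower. The oral suprabasal list, with 15 of 16 higher and 1 lower, and the stress keratin list, with 3 of 16 higher and 9 lower, kept their sides. The basal keratinocyte list holds Krt5 and Krt14, which are that reference. Ratios below are per total UMIs unless stated.

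Large differences lay in the keratins above the basal layer. Krt13 and Krt4 filled the oral spots and were all but missing from facial ones, and Krt1, Krt10 and Flg did the opposite. Krt13 (chromosome 11, 100117327 to 100121566, GRCm38.p6) ran from 10747 to 108575 CPM with a median of 45038 in oral spots and from 0 to 96.4 CPM with a median of 0 in facial spots. The ranges do not meet. Its sum was 44571 CPM in oral members (44137 to 45008) against 3 UMIs in facial members, a log2 ratio of 14.33 (95% interval 12.78 to 16.61). Krt4 (chromosome 15, 101918535 to 101924735), its type II partner, ran from 4757 to 50586 CPM with a median of 22260.2 in oral spots and had no UMI in facial members, which is at least 11158-fold higher against a floor of 3 UMIs for the 60 spots together. Sprr3, a small proline-rich envelope precursor of mucosal epithelium, ran from 98.7 to 9539.6 CPM with a median of 2947 in oral spots and had no UMI in facial members, at least 1309-fold.

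In facial skin the epidermal pair took this place. Krt1 (chromosome 15, 101845426 to 101850786) ran from 1226 to 20024 CPM with a median of 9932 in facial spots, and had a UMI in only 8 of 60 oral spots. The sums were 11002 and 15.5 CPM, 712-fold lower in oral mucosa (log2 ratio -9.48, 95% interval -10.35 to -8.73). Krt10 (chromosome 11, 99385254 to 99397449), the partner of Krt1, ran from 1226 to 18969 CPM with a median of 5762 in facial spots and from 0 to 1846 CPM with a median of 44.9 in oral ones. Their ranges overlapped in a few spots, since 37 of 60 oral members had a UMI of Krt10, and the sums differed 36.3-fold. Flg, the precursor of filaggrin, ran from 431 to 10759 CPM with a median of 2670.4 in facial spots and had 1 UMI in oral members (log2 ratio -11.29, 95% interval -16.59 to -8.81).

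Promoter sequence is shown for 2 genes of each side that were called for it by a wide margin and have an entry in the promoter table used, which Krt4 and Krt1 lack. Each run holds the 250 bases before the RefSeq transcription start in GRCm38.p6, read 5′ to 3′ on the gene's strand. Capitals mark matches to 4 motifs: the TATA box as TATAAA on the gene's strand only, and on both strands AP-1 as TGANTCA, AP-2 as GCCNNNGGC and the bicoid-type site as TAATCC. Krt13 (first of 2 starts, chr11:100121567-100121816, minus strand) holds an AP-1 match and a bicoid-type match, which begin 196 and 176 bases before the start. The window of its other start holds 2 AP-1 matches, 183 and 34 bases before that start, and no bicoid-type match. Sprr3 (chr3:92458721-92458970, minus strand) and Krt10 (chr11:99389365-99389614, minus strand) hold a TATA box, 33 and 26 bases before the start. Flg (chr3:93273296-93273545, plus strand) holds a TATA box and an AP-1 match, 53 and 103 bases before the start.
Krt13: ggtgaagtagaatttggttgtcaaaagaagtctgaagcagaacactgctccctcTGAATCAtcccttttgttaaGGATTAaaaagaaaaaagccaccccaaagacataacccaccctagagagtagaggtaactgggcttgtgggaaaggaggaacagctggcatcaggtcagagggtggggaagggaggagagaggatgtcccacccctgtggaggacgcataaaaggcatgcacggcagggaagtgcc
Sprr3: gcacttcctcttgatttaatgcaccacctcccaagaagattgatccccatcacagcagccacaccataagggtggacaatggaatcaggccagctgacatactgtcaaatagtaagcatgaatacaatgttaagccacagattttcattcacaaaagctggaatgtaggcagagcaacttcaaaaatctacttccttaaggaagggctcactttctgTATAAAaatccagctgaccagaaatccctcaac
Krt10: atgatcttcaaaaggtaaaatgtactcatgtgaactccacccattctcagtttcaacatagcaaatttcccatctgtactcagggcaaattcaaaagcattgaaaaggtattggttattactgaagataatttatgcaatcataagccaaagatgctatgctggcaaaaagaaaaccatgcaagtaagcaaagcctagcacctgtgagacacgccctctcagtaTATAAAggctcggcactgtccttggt
Flg: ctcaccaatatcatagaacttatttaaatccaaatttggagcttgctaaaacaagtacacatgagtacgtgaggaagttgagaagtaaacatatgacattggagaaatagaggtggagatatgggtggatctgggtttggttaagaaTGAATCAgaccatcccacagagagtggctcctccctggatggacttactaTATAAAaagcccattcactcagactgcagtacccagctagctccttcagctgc

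A match is a description of these letters and not of a bound site. Over 32536 distinct RefSeq promoters of this length, the TATA box was in 7.55%, AP-1 in 6.73%, AP-2 in 13.8% and the bicoid-type site in 6.25%. Of the 22 genes of the oral suprabasal list 18 had a promoter entry, and 8 held the TATA box, 5 AP-1, 4 the bicoid-type site and 0 AP-2. Of the 27 genes of the epidermal spinous and granular list 22 had one, and 7 held the TATA box, 7 AP-1, 2 AP-2 and 0 the bicoid-type site.

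By list, 11 of 16 measured oral suprabasal genes were higher in oral members and 1 was lower, with a median log2 ratio of 2.28 against -0.12 over all genes. Tgm3, a transglutaminase that crosslinks the cornified envelope, stood at 1918 and 154 CPM, 12.5-fold higher in oral mucosa. Paqr5, a membrane progestin receptor, was 11-fold higher, Ecm1, a matrix glycoprotein, 7.97-fold and Krt78, a type II keratin, 5.72-fold. Krt24 stood at 219 CPM against 3 UMIs (log2 ratio 6.66, 95% interval 5.09 to 8.95). At day 4 it stood at 1.67 CPM in oral and 5.34 in facial members, under the minimum of UMIs for a call. Krt76, a keratin of hard palate and gingiva, had only 30 UMIs in 4 oral spots and none in facial members. The exception was Sprr2a3, at 14.4 against 115 CPM (but a log2 ratio of 0.01 with facial spots matched on score), 1 of a cluster of near-identical genes among which reads may have been split.

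The epidermal spinous and granular list was not uniformly facial: 11 of 26 measured genes were lower in oral members and 5 were higher, with a median of -0.42. Beside Krt1, Krt10 and Flg, the lower genes included involucrin, Ivl, with no oral UMI and at least 75.1-fold, Krt77 with none and at least 74.5-fold, and Casp14, the protease that processes filaggrin, 44.7-fold. The desquamation proteases Klk5 and Klk7 were 16.4-fold and 7.75-fold lower. Loricrin, Lor, the main protein of the epidermal envelope, went the other way. It ran from 801 to 47844 CPM with a median of 6949 in oral spots and from 492 to 6704 CPM with a median of 2661 in facial spots. The ranges overlapped, but the sum was 3.21-fold higher in oral members, at 8555 against 2663 CPM. Calml3, a calmodulin-like protein of differentiating epithelium, was 4.8-fold, Aloxe3, an epidermal lipoxygenase, 2.48-fold and cornifelin, Cnfn, 2.07-fold higher in oral mucosa. Krtdap, a secreted protein of differentiating keratinocytes, stood at 5399 and 4693 CPM and was not called.

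**Figure D3:**
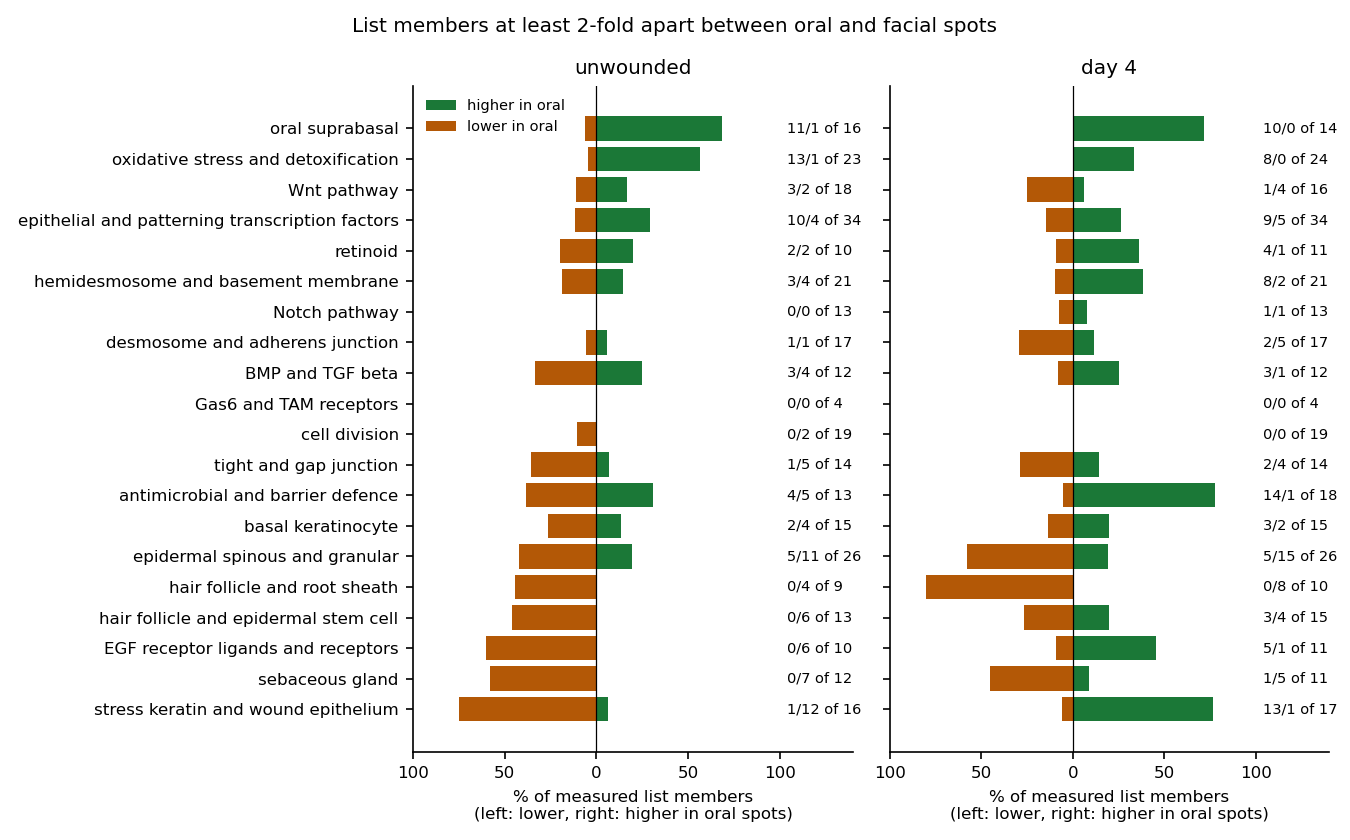
Percent of the measured genes of 20 epithelial lists called higher (to the right) or lower (to the left) in oral than in facial members, for the unwounded and the day 4 pair. Called oral suprabasal and detoxification genes lie mostly to the right at both times, while the stress keratin and EGF receptor lists change sides.

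Genes of the basal layer itself were called in both directions. Of 15 measured basal keratinocyte genes, 2 were higher in oral members and 4 lower, with a median of -0.42, beside 7.05% higher and 8.82% lower over all genes. With facial spots matched on score 4 were higher and 1 lower. The list holds Krt5, Krt14 and Krt15, which chose the spots, so these counts are in part a description of that choice. Igfbp2, an insulin-like growth factor binding protein, ran from 0 to 2368 CPM with a median of 793 in oral spots and from 0 to 865 CPM with a median of 154 in facial spots. The ranges overlapped and the sum was 4.45-fold higher in oral mucosa, but at day 4 it was 125 against 198 CPM. Cav1, the coat protein of caveolae, was 2.58-fold higher. P-cadherin, Cdh3, was 4.27-fold lower, at 26.5 against 113 CPM.

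Attachment to the basement membrane also showed calls in both directions, beside 7.05% higher and 8.82% lower over all genes. In the hemidesmosome and basement membrane list, 3 of 21 measured genes were higher in oral members and 4 lower, with a median of -0.02. In spots with under 0.5% of S100a8 and S100a9 the counts were 1 and 4 of 21, and with facial spots matched on score 1 and 5 of 22. The integrin chain Itga6 stood at 147 and 323 CPM, 2.2-fold lower in oral mucosa, while its partner Itgb4 was at 180.0 and 128 CPM and not called. Per Krt5 and Krt14 UMIs, Itga6 turned to higher in oral members (log2 ratio 0.50). Col17a1, the transmembrane collagen of hemidesmosomes, stood at 280.5 and 491 CPM, and the plakin Dst at 247 in both. Col7a1, the collagen of anchoring fibrils, was 2.31-fold lower and turned to 0.43 (log2) per Krt5 and Krt14 UMIs.

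Among junction genes 1 stood out. Dsc2, a desmosomal cadherin of lining epithelia, ran from 0 to 1342 CPM with a median of 428 in oral spots and from 0 to 173 CPM with a median of 7.27 in facial spots. Most oral spots lay above the highest facial spot. Its sum was 21.1-fold higher in oral mucosa (log2 ratio 4.40, 95% interval 3.93 to 4.90), and 58.8-fold at day 4. Dsc2 was the only called higher gene of 17 in the desmosome and adherens junction list, in which 1 was lower. These counts are near the shares over all genes, 7.05% higher and 8.82% lower. Dsc3, the basal form, stood at 318 and 588 CPM. Of 14 tight and gap junction genes 5 were lower and 1 higher: claudin 1, Cldn1, was 7.26-fold lower, while connexin 43, Gja1, was 2.14-fold higher.

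Transcription factors of the face and mouth marked the oral spots. Pitx1 (chromosome 13, 55825044 to 55836190), a homeodomain factor of oral ectoderm, ran from 0 to 1049.8 CPM with a median of 353 in oral spots, with a UMI in 47 of 60. It had 4 UMIs over all facial members, so the sums of 348 and 2.88 CPM differed 121-fold (log2 ratio 6.91, 95% interval 5.54 to 8.80). Pax9, a factor needed for palate and teeth, had a UMI in 40 oral spots and none in facial ones, at least 64.3-fold. Sox2, a progenitor factor of oral and oesophageal epithelium, had a UMI in 33 oral spots and none in facial ones, at least 42.9-fold. Foxe1, a forkhead factor of palate and thyroid, had 45 UMIs against 1 (log2 ratio 6.11, 95% interval 3.55 to 11.44).

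Of 34 measured epithelial and patterning factors, 10 were higher and 4 lower in oral members, with a median of 0.20. Hopx, a homeodomain-only protein of differentiating epithelium, was 3.37-fold higher, and the helix-loop-helix inhibitors Id2 and Id3 4.02-fold and 2.49-fold higher. With facial spots matched on score the log2 ratios of Id2 and Id3 were 0.14 and 0.04. The lower ones were Gata3, with 2 UMIs against 114 CPM in facial members (log2 ratio -5.69, 95% interval -8.75 to -3.81), the follicle factor Sox9, 6.14-fold, the AP-2 factor Tfap2c, 4.6-fold, and Id1, 2.18-fold, which turned to 0.51 (log2) per Krt5 and Krt14 UMIs.

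Keratins and envelope genes of stressed epidermis were lower in oral members. In the stress keratin and wound epithelium list 12 of 16 measured genes were lower and 1 was higher, with a median of -2.51; in spots with under 0.5% of S100a8 and S100a9 the counts were 11 and 1 of 16. Krt16 ran from 0 to 11403 CPM with a median of 279 in oral spots and from 2565 to 18356 CPM with a median of 6483 in facial spots. The ranges overlapped but most oral spots lay below the lowest facial one, and the sum was 11.2-fold lower, with a log2 ratio of -3.48 over all members and -3.03 in spots low in S100a8 and S100a9. Krt17 was 11.1-fold lower. Krt6a, the type II partner of both, stood at 5129 and 5075 CPM (log2 ratio 0.02, 95% interval -0.04 to 0.07) and was not called. In the spots low in S100a8 and S100a9 its log2 ratio was 0.75, and with facial spots matched on score it was 1.98, against -1.63 for Krt16. Serpinb3a, a serine protease inhibitor, was the gene called higher, 12.5-fold. Krt6a and Serpinb3a have near-identical neighbours, so their counts are uncertain.

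S100a8 ran from 861 to 32929.9 CPM with a median of 2481 in facial spots and had a UMI in 7 of 60 oral spots. The sum was 230.5-fold lower in oral members (log2 ratio -7.85), and in the spots low in both S100 genes the log2 ratio was -5.99, a limit that uses the gene itself. The stefin cluster on chromosome 16, whose cystatin-type products inhibit cysteine proteases, was as one-sided. Cstdc5 (36359382 to 36367570) ran from 3748 to 21085 CPM with a median of 9153 in facial spots and from 0 to 357 CPM with a median of 0 in oral ones, and Stfa3 (36450537 to 36455392) ran from 1229.6 to 10363 CPM with a median of 3951 in facial spots. Stfa1 (36277148 to 36285371) stood at 2204 CPM in facial members with no UMI in oral ones. No oral spot reached the lowest facial spot for the 3 genes summed, whose share was 0.627% to 3.63% in facial and 0% to 0.0357% in oral members; they are near-identical copies, so how their reads divide among them is uncertain.

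Defence genes split by gene and not by tissue. Of 13 measured antimicrobial and barrier genes 4 were higher and 5 lower in oral members, with a median of -0.35. Slpi, the secretory leukocyte protease inhibitor of mucosal fluids, ran from 0 to 7446 CPM with a median of 1947 in oral spots and from 0 to 1104 CPM with a median of 48.3 in facial spots. The ranges overlapped, and the sum was 35.3-fold higher in oral mucosa. The beta-defensin Defb4 was 58.5-fold higher, at 379.9 against 6.49 CPM, while Defb6, another beta-defensin, was 45.5-fold lower, at 19.9 against 904 CPM.

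Detoxifying enzymes were mostly higher in oral members. Of 23 measured oxidative stress and detoxification genes 13 were higher and 1 lower, with a median of 0.99, and together they took 0.823% of UMIs in oral and 0.346% in facial members. Aldh3a1, an aldehyde dehydrogenase of cornea and oral epithelium, stood at 1195 and 51.2 CPM, 23.3-fold. The cytochrome P450 Cyp2f2 was 26.8-fold higher. The glutathione transferases Gstm1 and Gsto1 were 8.94-fold and 3.2-fold higher, the quinone reductase Nqo1 4.34-fold and the retinol-oxidising dehydrogenase Adh7 3.51-fold. Thioredoxin reductase, Txnrd1, was 2.34-fold lower, and turned to 0.41 (log2) per Krt5 and Krt14 UMIs. With facial spots matched on score 13 of 24 genes were higher and 4 lower.

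Appendage genes were lower or not called in oral members per total UMIs. Per Krt5 and Krt14 UMIs 3 genes were higher and 2 lower in the root sheath list, 3 and 2 in the stem cell list, and 3 and 5 in the sebaceous gland list. Of the hair follicle and root sheath list 4 of 9 measured genes were lower and 0 higher, of the hair follicle and epidermal stem cell list 6 of 13 and 0, and of the sebaceous gland list 7 of 12 and 0. Krt79, a keratin of the upper follicle, stood at 659.9 CPM in facial and 22.1 in oral members, 29.9-fold lower. Periostin, Postn, a matrix protein, was 19.5-fold lower. The lipid desaturase Scd1 was 32.2-fold lower, but its level in facial members was 0.194 times that in the other facial spots, so it lay mainly outside them. Fa2h, a fatty acid hydroxylase of sebocytes, had no oral UMI, at least 46.2-fold.

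Ligands of the EGF receptor, a driver of keratinocyte growth and migration, were lower in oral members. Of 10 measured ligands and receptors 6 were lower and 0 higher, with a median of -1.11. Amphiregulin, Areg, had 3 oral UMIs against 93.8 CPM in facial members (log2 ratio -4.82, 95% interval -7.12 to -3.24). Epigen, Epgn, had 1 oral UMI against 91.6 CPM (log2 ratio -6.37, 95% interval -11.69 to -3.87), and Hbegf was 6.43-fold lower. In spots with under 0.5% of S100a8 and S100a9, 5 of 10 were lower, and per Krt5 and Krt14 UMIs 3 were lower and 3 higher.

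The Wnt list and the BMP and TGF beta list held calls in both directions, beside 7.05% higher and 8.82% lower over all genes. Of 18 Wnt genes 3 were higher and 2 lower: the epithelial ligand Wnt7b was 2.65-fold higher, and Wnt3, with no oral UMI, at least 6.97-fold lower. Of 12 BMP and TGF beta genes 3 were higher and 4 lower, with the ligand Bmp4 at 22.1 and 5.05 CPM. In spots with under 0.5% of S100a8 and S100a9, 1 of 13 was higher and 4 lower, and with facial spots matched on score 0 of 16 higher and 5 lower. No call was made among 13 Notch pathway genes. Of 19 cell division genes 0 were higher and 2 lower, a share near that of all genes. They were Rrm2, a subunit of ribonucleotide reductase, at 2.24-fold and the replication helicase gene Mcm3 at 2.02-fold. Mki67, a marker of cycling cells, stood at 177 and 141 CPM (log2 ratio 0.32, 95% interval 0.01 to 0.63). Per Krt5 and Krt14 UMIs 9 of 13 Notch and 15 of 19 cell division genes were higher, with 0 lower in each. On that scale 13 of 18 Wnt genes were higher and 1 lower, and 8 of 12 BMP and TGF beta genes higher and 0 lower. With facial spots matched on score 0 of 14 Notch genes were higher and 3 lower, and 2 of 19 cell division genes higher and 1 lower.

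Gas6, the ligand of the TAM receptor tyrosine kinases, stood at 133 CPM in oral and 98.1 in facial members (log2 ratio 0.43, 95% interval 0.07 to 0.80), with a UMI in 42 and 48 of 60 spots. Its receptor Axl stood at 82.8 and 81.5 CPM (log2 ratio 0.02, 95% interval -0.42 to 0.46). Tyro3, another receptor, was at 36.4 and 61.3 CPM, the other ligand, Pros1, at 29.8 and 45.4, and Mertk had no UMI on either side. With facial spots matched on score the log2 ratio of Gas6 was -0.68. None of these genes was called over the members per total UMIs. For counting error alone the intervals of Gas6 and Axl lie within a 2-fold difference. This depended on the setting: per Krt5 and Krt14 UMIs 3 of the 4 measured genes were higher and 0 lower. With facial spots matched on score 0 of 4 were higher and 1 lower.

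Several genes outside the lists lay at the ends of the ranking over all genes. Chil4, a chitinase-like protein, ran from 75.4 to 40101 CPM with a median of 3984 in oral spots and had no UMI in facial members, at least 2618-fold. The metallothionein Mt4, of stratified squamous epithelium, ran from 1918 to 18317 CPM with a median of 4642 in oral spots and summed to 22.4 CPM in facial members, 258-fold higher in oral mucosa. Mt3 stood at 1048 CPM against none, at least 484-fold, and stood at 13.4 CPM in the day 4 oral members. Gpx2, an epithelial glutathione peroxidase, had 594 UMIs against 2 (log2 ratio 8.83, 95% interval 6.97 to 11.88). On the facial side Ggct, gamma-glutamylcyclotransferase, was 89.5-fold lower in oral members, and the kallikrein Klk6 had 1 oral UMI against 482 CPM (log2 ratio -8.77, 95% interval -14.07 to -6.29).

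**Figure D4:**
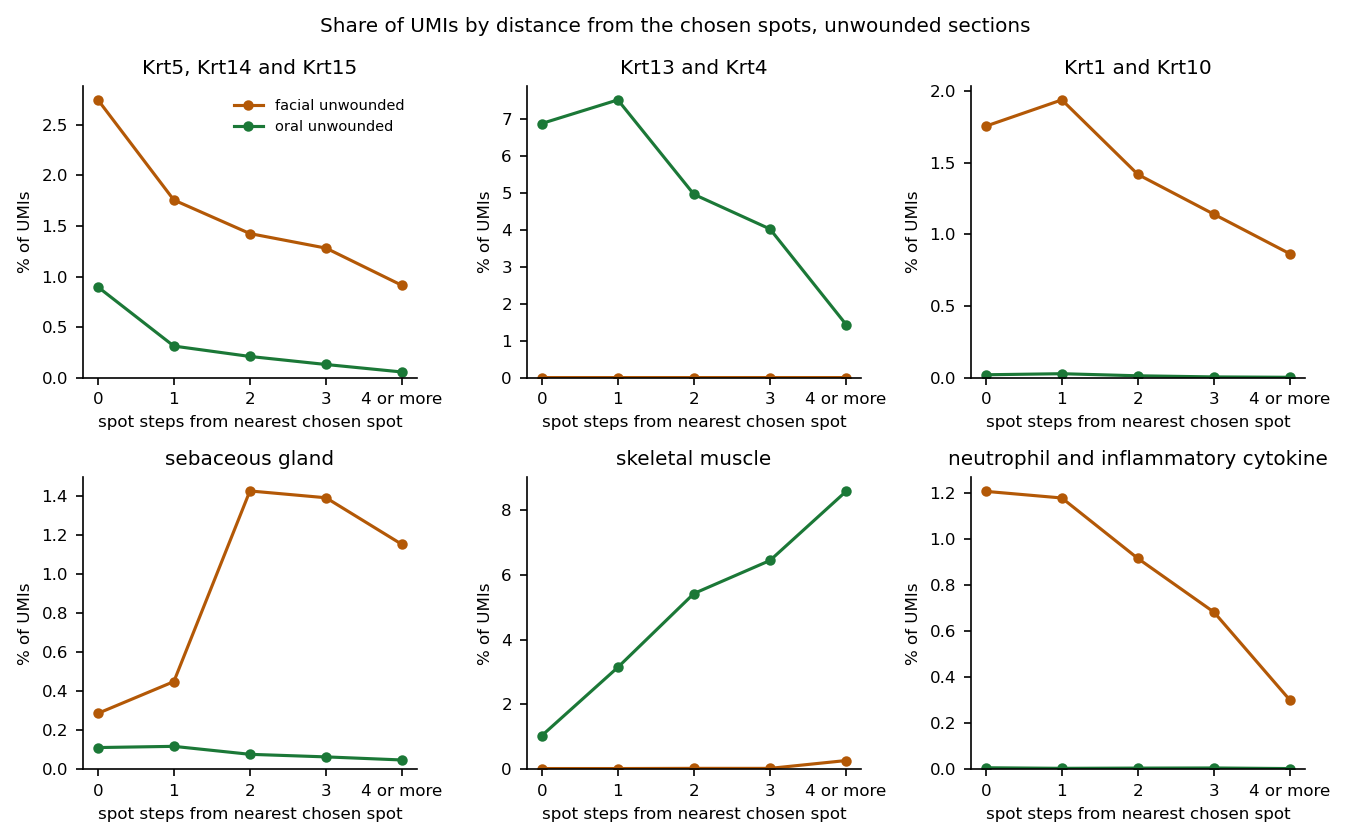
Share of UMIs, in percent, of 6 gene sets in member spots (step 0) and in spots 1, 2, 3 and 4 or more array steps away, for the unwounded sections. The fall of the basal keratins is fixed by the choice of spots, Krt13 with Krt4 is as high 1 step away as in the members, and muscle genes rise away from the oral members.

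Distance on the array showed what surrounds the members. In oral mucosa the score genes took 0.898% of UMIs in members and 0.312%, 0.209%, 0.130% and 0.0552% at 1, 2, 3 and 4 or more steps, while Krt13 with Krt4 took 6.87%, 7.51%, 4.95%, 4.02% and 1.44%. In facial skin the score genes took 2.75%, 1.76%, 1.43%, 1.28% and 0.912%, and Krt1 with Krt10 took 1.76%, 1.94%, 1.42%, 1.14% and 0.864%. The fall of the score genes is fixed by the choice of spots. In both tissues the suprabasal pair was highest 1 step from the members. Sebaceous gland genes rose from 0.286% in facial members to 1.43% at 2 steps.

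Markers of other cells moved with the comparison. All 13 measured skeletal muscle genes were higher in oral members, with a median of 4.82, and their share rose from 1.03% in members to 8.57% at 4 or more steps. Neutrophil and inflammatory cytokine genes were lower in oral members in 10 of 10, with a median of -1.83, and their share in facial members was 1.21% against 0.00574% in oral ones. Of 11 fibroblast genes 3 were higher and 2 lower, at 0.155% of oral and 0.198% of facial member UMIs, and with facial spots matched on score 1 of 12 was higher and 8 lower. Erythrocyte genes were higher in 3 of 4 and lower in 0, with a median of 2.71, and pericyte and smooth muscle genes higher in 3 of 6 and lower in 0; with the matched spots 1 of 4 was higher, and 1 of 6 was higher and 1 lower. Of 7 endothelial genes none was called, and no salivary gland, melanocyte or Merkel cell gene was measured. With spots of under 1% muscle genes, 611 genes were higher and 910 lower in oral members. With spots of under 0.5% of S100a8 and S100a9, 608 were higher and 899 lower. What part these cells have in single genes was not tested.

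The same rule was applied to the 2 day 4 sections, which the choice of the unwounded spots did not use. There 795 of 8897 genes were higher (8.94%) and 535 lower (6.01%), and with TMM scaling 756 (8.5%) and 602 (6.77%). Among 8586 genes measured at both times, 228 were higher at both, 213 lower at both, 8 higher unwounded and lower at day 4, and 111 lower unwounded and higher at day 4. Sex-linked transcripts differed between the times: Ddx3y and Eif2s3y had UMIs in both unwounded sets and none at day 4, and Xist the reverse, so time and the mice cannot be told apart.

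**Figure D5:**
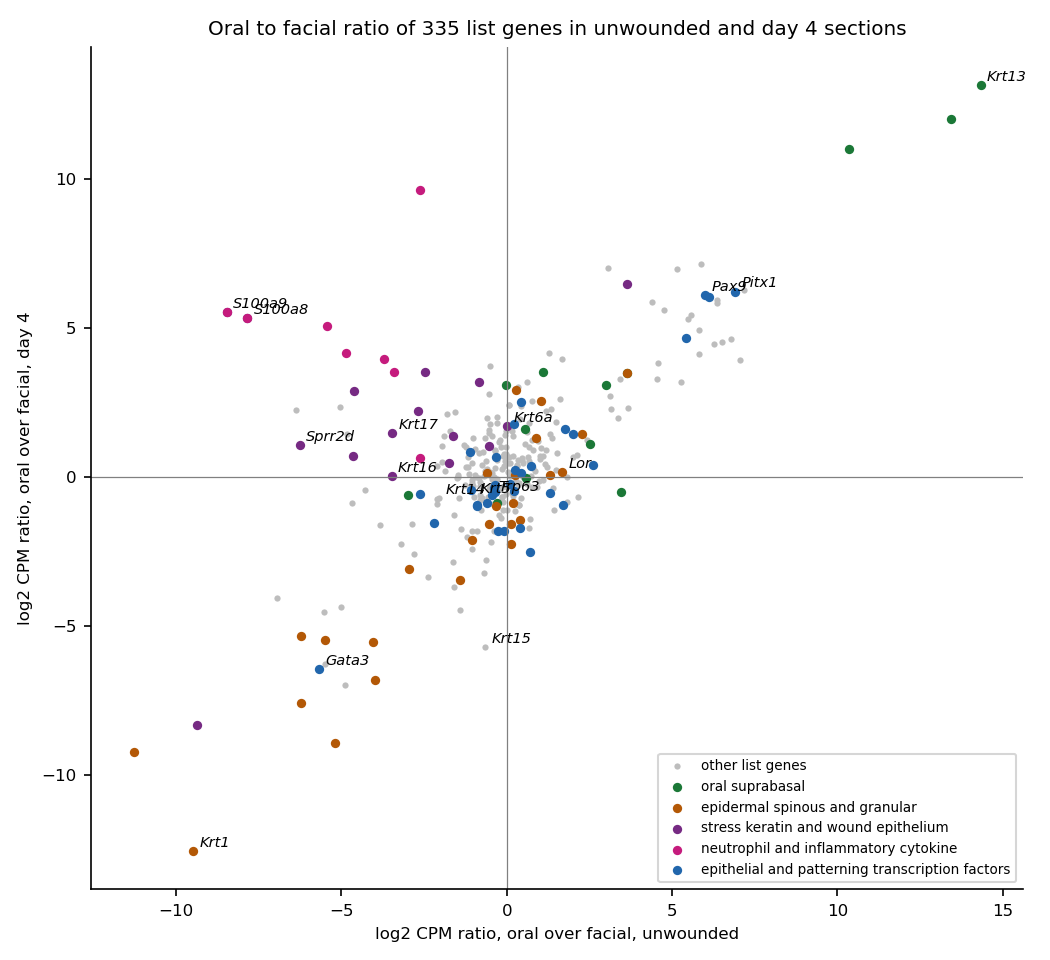
Log2 ratio of oral to facial CPM for 335 list genes in the unwounded pair (horizontal) and the day 4 pair (vertical), with a gene lacking UMIs on a side placed at the floor of 3 UMIs. Krt13 and Krt4 lie far up on the right, Krt1 and Krt10 far down on the left, and S100a8, S100a9 and Il1b at upper left.

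Krt13, Krt4 and Krt1 kept their side at day 4, while Krt24 had too few UMIs there for a call. Krt13 stood at 20889 CPM in day 4 oral members with no UMI in facial ones, and Krt4 at 9509 CPM with none. Krt1 stood at 19704 CPM in day 4 facial and 3.34 in oral members, and Pitx1 at 287 CPM in oral and 3.81 in facial ones. The oral suprabasal list had 10 of 14 higher and 0 lower at day 4, the epidermal list 5 of 26 higher and 15 lower.

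The stress and inflammation lists changed sides. In the stress keratin list 13 of 17 were higher in day 4 oral members and 1 lower, with a median of 1.47, and in the neutrophil and cytokine list 10 of 11 were higher. Krt16 stood at 6133 CPM in oral and 5935 in facial members at day 4, Krt17 at 2461 and 886, and Krt6a at 12444 and 3769. S100a8 stood at 6033 and 149.5 CPM. Of the EGF receptor genes 5 of 11 were higher and 1 lower. Antimicrobial genes were higher in 14 of 18 and lower in 1. Markers of other cells also stood higher in the day 4 oral members: 8 of 11 macrophage and monocyte genes, 7 of 8 endothelial genes and 4 of 5 salivary gland genes, with 0 lower in each, and their part was not tested. Whether the difference between the times exceeds that between animals was not tested, with 1 section per group.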

How the data were processed

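Raw UMI counts per gene and spot were deposited, and per the file headers they come from Space Ranger 1.3.1. Seurat and the mm10 build also appear in the submitters' processing notes. The aligner is not given in the sources used here. The matrices list 32285 genes, with 38 symbols held by more than 1 gene, of which the first was used. Barcodes mark fixed array positions, so the 152 barcodes that both unwounded sections share are not shared cells. No doublet caller was run, and tissue images were not used.

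UMIs were summed over the 60 spots per section and scaled to CPM of the sum. Intervals are exact Poisson (CPM) and exact conditional (ratio) at 95%. A gene with 0 UMIs was set at a floor of 3 UMIs over the 60 spots. List medians add 10 CPM. Genes were grouped in 35 lists of 527 genes, of which 525 matched a symbol. The members and lists were chosen with earlier results of these data known. Named genes were up to 6 per list by size of ratio (8 in the larger lists), the TAM genes, and the 10 highest and 10 lowest ratios with at least 100 UMIs and a UMI in at least 30 spots, also ranked among genes at 1.5 times the level of other spots. Genes named beyond this rule were chosen after their values were seen: Krt16, Krt17, Krt6a, Krt78, Trp63, Ecm1, Sprr2a3, Klk7, Lor, Calml3, Aloxe3, Cnfn, Krtdap, Itgb4, Col17a1, Dst, Hopx, Tfap2c, Id1, Serpinb3a, Gsto1, Adh7, Txnrd1 and Mki67. Coordinates and promoters are RefSeq's for GRCm38.p6. Krt4, Krt1, Krt15 and Pitx1 have no entry in the promoter table used.

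A few genes that the rule names are not reported here. Alternatives changed the number and choice of spots, the score, the scaling, the minimum of UMIs and the fold. Tools were Python 3.11.15 with numpy 2.4.6, scipy 1.17.1, pandas 2.3.3 and matplotlib 3.10.9, and R 4.3.3 with edgeR 4.0.16 for TMM factors only.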

Additional observations from a re-analysis of the deposited data

Results flagged for a closer look

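Of 181 named genes, 18 were called lower in oral than in facial members unwounded and higher at day 4. Over all 8586 genes measured at both times the count was 111, and the named genes were picked by the size of their ratio. In each of the 18, the difference between the times was not tested, with 1 section per group, and the sections of the 2 times also differ in their sex-linked transcripts. Values are the day 4 log2 ratio of oral to facial minus the unwounded one, followed by both ratios, with a side at 0 UMIs set at the floor.

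Among genes of neutrophils and inflammation the change was 14.01 for S100a9 (-8.46 to 5.54), 13.18 for S100a8 (-7.85 to 5.33), 10.53 for the cytokine Il1b (-5.44 to 5.09), 9.06 for the chemokine Cxcl2 (-4.87 to 4.19) and 7.70 for the receptor Csf3r (-3.71 to 3.99). It was 12.39 for the acute-phase gene Saa3 (-7.73 to 4.65), 7.52 for lipocalin Lcn2 (-4.62 to 2.90) and 9.16 for the chitinase-like Chil1 (-7.89 to 1.27). The macrophage genes Cd68 and Mrc1 changed by 3.25 (-1.71 to 1.54) and 3.02 (-1.97 to 1.05).

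Among EGF receptor ligands it was 8.64 for Epgn (-6.37 to 2.27), 6.27 for Areg (-4.82 to 1.45), 4.93 for Hbegf (-2.69 to 2.24) and 2.38 for Tgfa (-1.30 to 1.08). Among attachment and matrix genes it was 3.92 for tenascin Tnc (-1.80 to 2.12) and 2.27 for the integrin chain Itga3 (-1.24 to 1.04). The others were the follicle gene Plet1 at 7.42 (-5.06 to 2.36) and the envelope gene Sprr2d at 7.34 (-6.25 to 1.09). Per Krt5 and Krt14 UMIs, the unwounded ratios of Tgfa and Itga3 were already above 0.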

How the results depend on the processing

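Counts of genes past the fold moved by over 1.5 times in these settings, given as higher and lower in oral members. With Krt5 and Krt14 UMIs as the reference they were 6392 and 153 unwounded and 2043 and 197 at day 4. With a minimum of 100 UMIs, which leaves fewer genes tested, they were 237 and 420 unwounded and 283 and 262 at day 4. A fold of 3 left 465 lower unwounded and 314 lower at day 4. With 30 spots per section 477 were higher at day 4, and with facial spots matched on score 1722 were lower unwounded; the cause was not tested. In the other settings the unwounded counts ran from 446 to 844 higher and from 572 to 1245 lower.

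Of the 181 genes the naming rule picked, 17 reversed with the Krt5 and Krt14 reference, to log2 ratios of 0.62 for Mcm3, 0.50 for Itga6, 0.0315 for Bmp7, 0.23 for Gjb5, 0.14 for Ereg, 0.25 for Fzd10, 0.19 for Cyp26b1, 0.34 for Tgfa, 0.006 for Lrig1, 0.16 for Smad1, 0.43 for Col7a1, 0.15 for Col1a1, 0.40 for Itga3, 0.47 for Rrm2, 0.0445 for Sostdc1, 0.59 for H2-Ab1 and 0.38 for Epcam. Id1 and Txnrd1, named beyond the rule, also reversed, to 0.51 and 0.41. With facial spots matched on score 9 of the 181 reversed, to -0.25 for Lamc1, -0.43 for Dpt, -1.18 for Rgs5, -0.31 for Npnt, -0.60 for Dhrs3, -0.11 for Hbb-bt, -0.91 for Dkk3, -1.32 for Dcn and -0.14 for Acta2, and Sprr2a3, named beyond the rule, went to 0.01. No called gene of the 181 reversed in the other 9 settings that were run on single genes. Many genes moved without reversing, over the 180 named genes compared by setting. With the matched spots 82 stayed the same and 89 moved, and with the Krt5 and Krt14 reference 38 stayed and 125 moved. With 30 spots 135 stayed and 45 moved, and in each remaining setting at most 24 moved. The matched spots and the limit on S100a8 and S100a9 were added after seeing the data.

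No paired analysis was possible because each group holds 1 section, and no replicate could be left out. Oral members have fewer UMIs than facial ones, and their floor is 3.31 CPM against 2.16. Animals, site within the mouth and slide cannot be told apart from the tissue.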
